A study of Mus musculus with 8 samples.

Results

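The CC chemokine genes Ccl2, Ccl7, Ccl8 and Ccl11 were examined in fibro/adipogenic progenitors (FAPs) of skeletal muscle, stromal cells that lie between the fibres and carry PDGFRα. All 4 genes were found by symbol among the 31053 genes of the deposited tables. The cells were sorted for surface PDGFRα from hindlimb muscles. The mice were females of 8 months, either dysferlin knockout (strain given as BLA/J in the labels and as B6A/J in the protocol) or wild type (C57BL/6). Dysferlin is a membrane repair protein of muscle, and its loss causes a muscular dystrophy. The labels list 4 samples in each group, and each group is held in 1 matrix of unique molecular identifier (UMI) counts with no map from cells to samples. Each group was therefore 1 library, with no replicate check, and genotype, strain and preparation of the library cannot be told apart. Barcodes with at least 500 genes, at most 10% mitochondrial UMIs and at least 1 Pdgfra UMI were used. They numbered 1435 of 1724 barcodes in the knockout library and 1533 of 2073 in the wild type library.

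Chemokines are small secreted proteins that bind to heparan sulfate on cells and matrix and guide leukocytes that carry the matching receptor. Ccl2 and Ccl7 are ligands of Ccr2 and draw monocytes, Ccl11 (eotaxin) is a ligand of Ccr3 and draws eosinophils, and mouse Ccl8 has been described as a ligand of Ccr8. In injured muscle, stromal cells are a known source of such signals for the macrophages and eosinophils that enter the tissue.

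The 4 genes lie in 1 stretch of 81.2 kb on mouse chromosome 11, all on the plus strand (mm10 build). Ccl2 (ENSMUSG00000035385) spans chr11:82035571-82037453, Ccl7 (ENSMUSG00000035373) chr11:82045712-82047525, Ccl11 (ENSMUSG00000020676) chr11:82057823-82062955 and Ccl8 (ENSMUSG00000009185) chr11:82115185-82116799. Ccl12, which lies between Ccl11 and Ccl8, had 2 UMIs in the knockout library and 0 in the wild type library, where 0 allows up to 3 counts. The antisense gene Gm17268 overlaps Ccl2 and had 0 UMIs in both libraries.

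The family is named for a pair of adjacent cysteines near the start of the mature protein, and the 4 genes are shown over the 48 coding bases around that pair to show how alike the counted transcripts are. Each stretch lies in exon 2 of 3, reads 5′ to 3′ on the plus strand, and has the cysteine codon pair in capitals (GENCODE M21, mm10). The stretches are chr11:82036494-82036541 for Ccl2, chr11:82046526-82046573 for Ccl7, chr11:82116044-82116091 for Ccl8 and chr11:82061684-82061731 for Ccl11.
Ccl2: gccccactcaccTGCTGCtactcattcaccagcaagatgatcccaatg
Ccl7: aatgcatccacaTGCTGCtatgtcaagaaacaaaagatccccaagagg
Ccl8: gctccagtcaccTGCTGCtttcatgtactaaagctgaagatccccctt
Ccl11: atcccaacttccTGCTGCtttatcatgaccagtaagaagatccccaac
Over the aligned coding bases, the 6 pairs of genes were between 67.7% identical (Ccl7 and Ccl11) and 72.1% identical (Ccl2 and Ccl7). The longest run of identical bases shared by a pair of whole transcripts was 23 bases, between Ccl2 and Ccl7, and the shortest such maximum was 11 bases.

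The gated cells gave 19170199 UMIs in the knockout library and 14420247 in the wild type library. The median cell had 12717 UMIs and 3561 genes in the knockout library, against 9177 UMIs and 2860 genes in the wild type library. Pdgfra itself stood at 490 UMIs in every 1000000 (CPM) in knockout cells and 494 CPM in wild type cells. Dysf, the targeted gene, had 14 UMIs in knockout cells and 9 in wild type cells, a log2 ratio of 0.23 with a 95% interval of -1.08 to 1.62. That interval includes 0, and a 3′ tag need not lie in a disrupted part of the gene, so Dysf gives the labels no check. The libraries shared 13 barcode sequences, 2 of them among the gated cells. In summed CPM, macrophage or monocyte markers stood at 80.9 in knockout cells and 12.3 in wild type cells. Of the 80.9, the myeloid gene Lyz2 gave 54.9, and 971 of its 1052 UMIs were in 1 cell. Mast cell markers stood at 23.1 in knockout and 2.57 in wild type, cycling markers at 61.4 in knockout and 2.64 in wild type, and erythroid markers at 30.3 in knockout and 842 in wild type. Without the clusters that carried macrophage, mast cell or erythroid markers, a setting chosen after seeing the data, the log2 ratios given next were 2.76 for Ccl2, 2.07 for Ccl7, 1.73 for Ccl8 and -0.34 for Ccl11.

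Ccl2, Ccl7 and Ccl8 were several-fold higher in the knockout library, and Ccl11, the most abundant of the 4 in both libraries, was slightly lower. Ccl2 stood at 239.6 CPM in knockout cells (4593 UMIs) and 35.5 CPM in wild type cells (512 UMIs). That is 6.75-fold higher, a log2 ratio of 2.75 with an exact 95% interval of 2.62 to 2.89. Ccl7 stood at 106.9 CPM in knockout cells (2050 UMIs) and 25.2 CPM in wild type cells (363 UMIs), 4.25-fold higher, with a log2 ratio of 2.09 (1.93 to 2.25). Ccl8 stood at 90.9 CPM in knockout cells (1743 UMIs) and 27.3 CPM in wild type cells (394 UMIs), 3.33-fold higher, with a log2 ratio of 1.73 (1.58 to 1.90). The 3 intervals did not overlap each other. All of them cover counting error only, not the spread between animals. With at least 2 Pdgfra UMIs required the Ccl2 log2 ratio was 3.50, and without the 5% of cells highest in the gene it was 4.30 for Ccl7 and 2.52 for Ccl8. A Ccl7 UMI was in 6.00% of wild type cells, so this cut removed most such cells. It left 524 knockout and 20 wild type Ccl7 UMIs, and 1078 knockout and 140 wild type Ccl8 UMIs.

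Ccl11 stood at 598 CPM in knockout cells (11472 UMIs) and 756 CPM in wild type cells (10898 UMIs), 1.26-fold lower, with a log2 ratio of -0.34 (-0.37 to -0.30). Of 5933 genes with a mean of at least 20 CPM, 105 (1.77%) were higher by 2-fold or more in knockout cells and 60 (1.01%) were lower by as much. Ccl2, Ccl7 and Ccl8 passed the 2-fold criterion, while Ccl11 passed neither that nor the 1.5-fold one, which 3.59% of genes passed downward and 5.07% upward. A decrease of any size was seen in 41.4% of genes, and the median log2 ratio of all 5933 was 0.05.

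**Figure D1:**
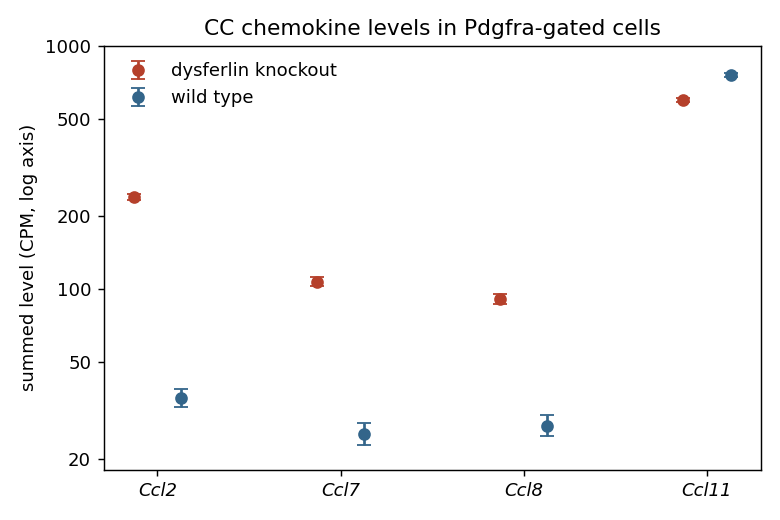
Summed level of each chemokine in gated cells (CPM, log axis), with the knockout library in red left of the wild type library in blue. Bars are exact Poisson 95% intervals, which cover counting error only. Ccl2, Ccl7 and Ccl8 lie higher in the knockout library (239.6, 106.9 and 90.9 CPM, against 35.5, 25.2 and 27.3 CPM in wild type), and Ccl11 lies lower (598 against 756 CPM).

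The makeup of the 4 genes' UMIs also differed. A 3′ kit counts 1 end per transcript, so UMI levels were set side by side with no correction for length. Of all UMIs of the 4 genes, Ccl11 held 57.8% in knockout cells and 89.6% in wild type cells. Ccl2 held 23.1% in knockout cells and 4.21% in wild type cells, Ccl7 10.3% in knockout and 2.98% in wild type, and Ccl8 8.78% in knockout and 3.24% in wild type. In knockout cells the order of levels was Ccl11, Ccl2, Ccl7, Ccl8, with no overlap between neighbouring 95% intervals, which leave out the draw of cells. In wild type cells it was Ccl11, Ccl2, Ccl8, Ccl7, and there the intervals of Ccl8 (24.7 to 30.2 CPM) and Ccl7 (22.6 to 27.9 CPM) overlapped, so those neighbours do not differ beyond counting error.

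The genes differed widely in how many cells carried them. A Ccl11 UMI was found in 86.2% of knockout cells and 81.5% of wild type cells, and a Ccl8 UMI in 38.3% of knockout and 12.1% of wild type cells. A Ccl7 UMI was found in 19.8% of knockout and 6.00% of wild type cells, and a Ccl2 UMI in 11.4% of knockout and 3.33% of wild type cells. Knockout cells were deeper, so each cell was thinned at random to 4000 UMIs, which left 1318 knockout and 1323 wild type cells and dropped 117 shallower knockout and 210 shallower wild type ones. After thinning, Ccl2 was found in 7.13% of knockout cells (exact 95% interval 5.80 to 8.66) and 2.34% of wild type cells (1.60 to 3.31). Ccl7 was found in 12.4% of knockout cells (10.7 to 14.3) and 3.48% of wild type cells (2.56 to 4.61), and Ccl8 in 20.6% of knockout cells (18.5 to 22.9) and 6.73% of wild type cells (5.44 to 8.21). Ccl11 was found in 74.8% of thinned knockout cells and 75.6% of thinned wild type cells, a difference of -0.78 percentage points with an interval of -4.12 to 2.57.

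Barcodes with at least 3 of 8 endothelial markers and no Pdgfra UMI were used to look at background from free RNA. Endothelial cells can make Ccl2 themselves, so for that gene they are not a clean negative. There were 5 in the knockout library (median 3232 UMIs) and 35 in the wild type library (median 3218 UMIs). They held no Ccl2, Ccl7 or Ccl8 UMI in either library. Ccl11 had 1 UMI in 1 of the 35 wild type barcodes (2.86%) and none in the 5 knockout barcodes. None of 35 still allows up to 10.0% of barcodes and none of 5 up to 52.2% (exact 95% limits), so background in Ccl2, Ccl7 and Ccl8 at the shares seen in wild type cells could not be told from these barcodes.

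Within a library, Ccl2 was concentrated in very few cells and Ccl11 was spread over most. The top 1% of cells, ranked by their UMIs of the gene, held 68.2% of Ccl2 UMIs in the knockout library and 90.0% in the wild type library. For Ccl7 it held 41.8% in knockout and 70.2% in wild type, for Ccl8 16.5% in knockout and 33.0% in wild type, and for Ccl11 5.62% in knockout and 6.37% in wild type. Put in cells, 9 of 1435 knockout cells and 4 of 1533 wild type cells held at least 50% of all Ccl2 UMIs. For Ccl7 the numbers were 20 knockout and 6 wild type cells, for Ccl8 92 knockout and 33 wild type cells, and for Ccl11 245 knockout and 254 wild type cells.

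The positive cells themselves ranged from 1 UMI to 412. Ccl2-positive cells had a median of 2 UMIs in both libraries, with an upper decile starting at 102 UMIs in knockout cells and 30 in wild type cells, and a highest cell of 412 UMIs in knockout and 137 in wild type. Ccl7-positive cells had a median of 2 UMIs in knockout cells and 1 in wild type cells, and a highest cell of 235 UMIs in knockout and 44 in wild type. Ccl8 never reached such heights, with a highest cell of 52 UMIs in the knockout library and 17 in the wild type library. Ccl11-positive cells had a median of 7 UMIs in knockout cells and 6 in wild type cells, and a highest cell of 66 UMIs in knockout and 83 in wild type. The other 3 genes had both more positive cells and a higher top cell in the knockout library.

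**Figure D2:**
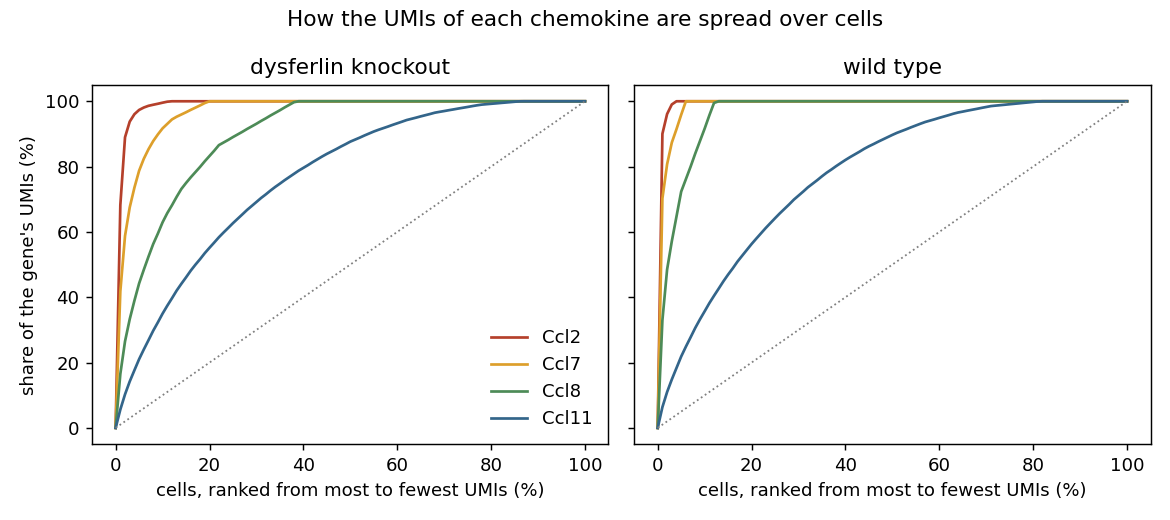
Share of each chemokine's UMIs (%) held by the cells of a library, ranked from most to fewest UMIs (%), with the knockout library on the left and the wild type library on the right. The dotted line marks an even spread. The Ccl2 curve climbs almost at once (68.2% of UMIs in the top 1% of knockout cells, 90.0% in wild type), followed by Ccl7 and Ccl8, and Ccl11 lies nearest to the line.

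Cells with at least 10 Ccl2 UMIs numbered 42 in the knockout library and 12 in the wild type library, and they held 93.6% of the gene's UMIs in knockout and 86.9% in wild type. All of them carried Dcn, Col1a1 and Col3a1, matrix genes of FAPs, as did nearly all other gated cells (97.7% or more for each gene in each library), and none carried Ptprc, the pan-leukocyte gene CD45. Their level of Dcn was lower, at 7589 CPM in the 42 knockout cells and 14172 CPM in the other knockout cells, and at 12287 CPM in the 12 wild type cells and 19017 CPM in the other wild type cells. Pdgfra stood at 412 CPM in the 42 and 493 CPM in the other knockout cells, and at 304 CPM in the 12 and 497 CPM in the other wild type cells. Pecam1, an endothelial gene, was seen in 6 of the 42 knockout cells (14.3%, against 8.76% of the other knockout cells) and in none of the 12 wild type cells. Cd68, a macrophage gene, was seen in 2 of the 42 knockout cells and 0 of the 12 wild type cells, and Csf1r, the receptor of macrophages for their growth factor, in none. Lyz2, a myeloid gene, was seen in 5 of the 42 knockout cells (11.9%, against 4.02% of the other knockout cells). It was seen in 2 of the 12 wild type cells (16.7%, against 0.99% of the other wild type cells). In CPM, Lyz2 stood at 5.41 in the 42 and 57.4 in the other knockout cells, and at 9.08 in the 12 and 1.48 in the other wild type cells. Of the 1052 knockout Lyz2 UMIs, 971 were in 1 cell outside the 42, so most of the 57.4 CPM came from that cell. The cells with at least 10 Ccl2 UMIs were deeper than most, with a median of 20346.5 UMIs in the knockout library and 17804.5 in the wild type library. The part of depth in their Ccl2 counts was not tested. Split at the median depth, Ccl2 stood at 300.6 CPM in the deeper and 86.8 CPM in the shallower knockout cells, and at 45.7 CPM in the deeper and 12.0 CPM in the shallower wild type cells. Ccl11 ran the other way, at 582 CPM in the deeper and 639 CPM in the shallower knockout cells, and at 726 and 824 CPM in the wild type cells.

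Ccl2 and Ccl7 were found together more often than their single shares give, and by a larger ratio than any other pair. Even so, most thinned cells with 1 of them lacked the other. In thinned knockout cells, 46 carried both genes, against 11.7 expected from their single shares, a ratio of 3.93. In thinned wild type cells, 11 carried both, against 1.08 expected, a ratio of 10.2 that rests on those 11 cells. Ccl7 was present in 48.9% of thinned Ccl2-positive knockout cells and 35.5% of the wild type ones, and Ccl2 in 28.0% of Ccl7-positive knockout cells and 23.9% of the wild type ones. Before thinning, Ccl7 was present in 58.5% of Ccl2-positive knockout cells and 33.3% of the wild type ones. The other 5 pairs had ratios of 1.01 to 1.33 in knockout cells and 1.02 to 2.26 in wild type cells. Pairs with Ccl11 could not reach a high ratio, since 74.8% of thinned knockout and 75.6% of thinned wild type cells carried it. Across cells, Pearson's r of log-scaled values (the natural log of 1 plus UMIs per 10000) for Ccl2 and Ccl7 was 0.59 over 1435 knockout cells and 0.39 over 1533 wild type cells. For the other pairs it lay between 0.06 and 0.11 in knockout cells and between 0.03 and 0.06 in wild type cells. The cells of a library share its preparation and these values are descriptions of it.

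Seen from Ccl7, 67.3% of its UMIs in the knockout library and 56.7% in the wild type library came from cells with a Ccl2 UMI. Those cells made up 11.4% of the knockout and 3.33% of the wild type library. Ccl7 stood at 464 CPM in Ccl2-positive and 41.4 CPM in Ccl2-negative knockout cells, and at 314 and 11.4 CPM in the wild type cells. Ccl8 differed much less by this split, at 114 CPM in Ccl2-positive and 86.8 CPM in Ccl2-negative knockout cells, and at 32.1 and 27.1 CPM in the wild type cells. Ccl11 stood at 679 CPM in Ccl2-positive and 584 CPM in Ccl2-negative knockout cells, and at 862 and 751 CPM in the wild type cells. Ccl2-positive cells were deeper, with a median of 16927 UMIs against 12276 in Ccl2-negative knockout cells, and 11496 against 9017 in the wild type cells. The part of depth in this split was not tested. Of the 42 knockout cells with at least 10 Ccl2 UMIs, 39 had Ccl7, 26 had Ccl8 and 41 had Ccl11. Of the 12 such wild type cells, 8 had Ccl7, 3 had Ccl8 and 11 had Ccl11. The highest Ccl2 cell of the wild type library, with 137 UMIs, had no Ccl7 UMI.

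Cxcl9, a chemokine gene induced by interferon-γ, was carried by 25 of the 42 knockout cells high in Ccl2 and by 2 of the 12 wild type cells. It was carried by 23.8% of all knockout cells and 1.44% of all wild type cells. In the knockout library, Ccl2 stood at 423 CPM in Cxcl9-positive and 164 CPM in Cxcl9-negative cells, Ccl7 at 217 and 61.7 CPM, Ccl8 at 135 and 72.9 CPM, and Ccl11 at 644 and 579 CPM. The Cxcl9-positive knockout cells were also deeper, with a median of 16001.5 UMIs against 11821 in the Cxcl9-negative ones. The part of depth in this split was not tested. Without Cxcl9-positive cells, the log2 ratio was 2.36 for Ccl2, 1.46 for Ccl7 and 1.43 for Ccl8, so each stayed at least 2-fold higher.

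**Figure D3:**
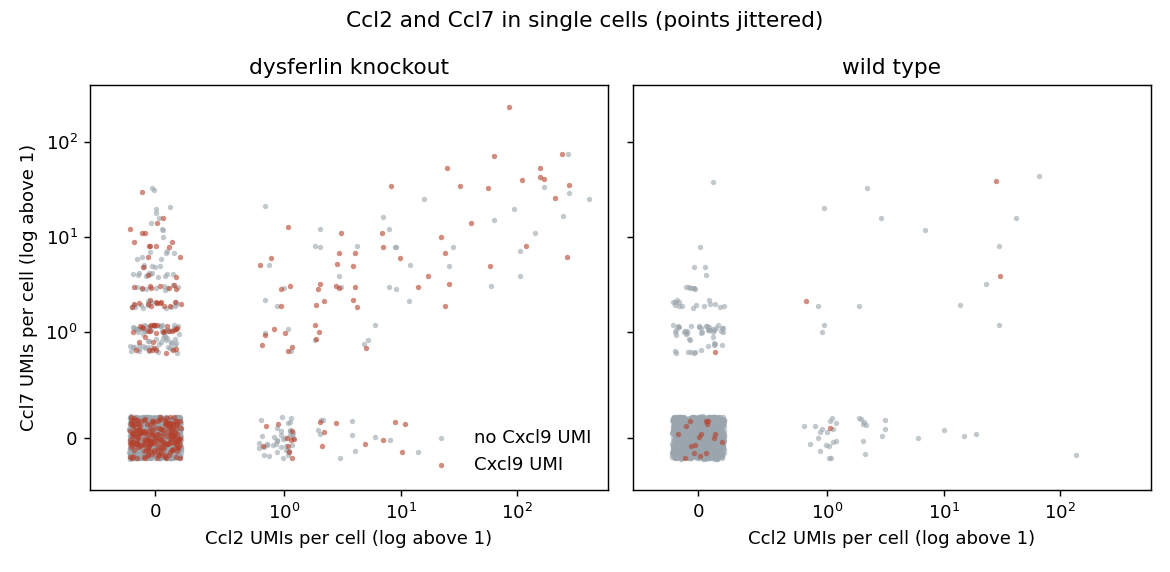
Ccl2 UMIs (x axis) and Ccl7 UMIs (y axis) per cell in the knockout library (left) and the wild type library (right), on axes that are linear to 1 and logarithmic above, with points jittered. Red points carry a Cxcl9 UMI and grey points do not. Cells high in Ccl2 mostly carry Ccl7, reaching 412 Ccl2 UMIs and 235 Ccl7 UMIs in knockout cells, and 137 and 44 in wild type cells.

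Leiden clustering of the gated cells of both libraries, made with the 4 genes left out, gave 14 clusters, which are called by number and first leading gene. A cluster that is nearly all from 1 library may reflect that library, not a kind of cell. Cluster 6 (Cxcl9, Iigp1, Timp1) had 352 knockout cells and 12 wild type cells. It held 68.5% of all Ccl2 UMIs, 68.4% of Ccl7 UMIs, 35.4% of Ccl8 UMIs and 26.6% of Ccl11 UMIs of the knockout library. In its knockout cells Ccl2 stood at 554 CPM, Ccl7 at 247 CPM, Ccl8 at 109 CPM and Ccl11 at 536 CPM, so there Ccl2 was level with Ccl11. Its 12 wild type cells had 174 Ccl2 UMIs, 137 of them in a single cell. Ccl2 stood at 823 CPM in those 12 cells, the highest level of any wild type cluster. They held 34.0% of the Ccl2 UMIs of the wild type library.

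Ccl2 reached 958 CPM in the 33 knockout cells of cluster 5, which was led by the proliferation genes Mki67 and Top2a and had 1 wild type cell. This came from 8 of its cells, 1 of which held 278 of the 633 UMIs. In cluster 2 (Shisa3), 412 of the 413 knockout Ccl2 UMIs were in 1 cell. Outside these clusters, Ccl2 in knockout cells was at most 111 CPM (cluster 8, 22 cells), and it was 0 UMIs in the 76 knockout cells of cluster 0. In wild type cells Ccl2 was spread over several clusters, at 65.0 CPM in cluster 9 (C7), 47.6 CPM in cluster 10 (Wnt10b), 45.1 CPM in cluster 2, 28.1 CPM in cluster 8 (Zfp36) and 24.3 CPM in cluster 0 (Nrxn2). In each of these the highest cell held 15 UMIs or more, so a few cells again set the level.

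Ccl8 had another distribution. In the knockout library it stood near 110 CPM in cluster 1 (Gm30075, Cpxm1), at 117 CPM in cluster 7 (Cmah) and at 109 CPM in cluster 6, and cluster 1 held 29.9% of its UMIs. The highest level, 137 CPM, was in cluster 11, which is described further on. Clusters 4 (Klf5) and 12 (Kdr, Fmod) had 11.4 and 25.8 CPM. In the wild type library Ccl8 was highest in cluster 2, at 98.9 CPM, and in cluster 1, at 62.2 CPM, where 39.5% of the 38 cells had a UMI. In wild type cells of cluster 4 it stood at 8.61 CPM.

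Ccl11 was highest in cluster 0, at 1379 CPM in knockout cells and 1357 CPM in wild type cells, with a UMI in 94.7% of the knockout and 98.0% of the wild type cells. Hsd11b1, which regenerates active glucocorticoid, was among the leading genes of that cluster. Ccl11 was lowest in cluster 12, at 61.3 CPM in knockout cells and 32.7 CPM in wild type cells. In cluster 10 the levels were 634 CPM in both libraries. Among clusters with at least 25 cells of each library, the interval of the log2 ratio lay below 0 in clusters 3 (Inmt; 580 CPM in knockout and 829 CPM in wild type cells) and 4 (522 CPM in knockout and 599 CPM in wild type cells). It lay above 0 in cluster 1, at 664 CPM in knockout cells and 573 CPM in wild type cells.

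Cluster 11 (Cma1, Mcpt4, Igkc; 45 knockout cells and no wild type cell) carried mast cell, macrophage or monocyte and erythroid markers beside all 10 FAP markers. Ccl2 and Ccl7 were each found in 62.2% of its cells, at no more than 10 and 12 UMIs a cell, and it held 1.63% of the Ccl2, 5.37% of the Ccl7, 5.68% of the Ccl8 and 3.63% of the Ccl11 UMIs of the knockout library. Without clusters 11 and 13, Ccl2 was found in 5.80% of thinned knockout cells and 2.56% of thinned wild type cells, a difference of 3.24 percentage points in place of 4.79, while the summed levels kept their ratios. Cluster 13 (Hbb-bs, Hba-a1, Fabp4, Gpihbp1, Egfl7; 2 knockout and 39 wild type cells) was led by hemoglobin genes and by genes known from capillary endothelium. Its 39 wild type cells had Ccl11 at 582 CPM.

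At least 25 cells of each library were present in 7 clusters, 793 knockout and 1222 wild type cells in all. In these, Ccl7 was higher in knockout cells in 5 of 7 clusters (median log2 ratio 1.45), and Ccl8 in 5 of the 6 clusters that gave a ratio (median 0.66). The interval of the ratio lay above 0 in 3 of those clusters for each gene. The Ccl7 count includes cluster 4, at 0.01 (-1.27 to 1.20), and cluster 12, with 3 knockout UMIs and 1 wild type UMI. Ccl11 was higher in 4 and lower in 3 of 7 clusters, with a median of 0.00. Ccl2 gave a ratio in 4 clusters and was higher in 1 and lower in 3 of them (median -0.68, range -2.72 to 3.60). Clusters with 0 Ccl2 UMIs in 1 library gave no ratio. Cluster 0 had 0 knockout and 42 wild type UMIs, cluster 1 had 39 knockout and 0 wild type, and cluster 12 had 0 knockout and 2 wild type. Most knockout Ccl2 UMIs lay outside the shared clusters, in clusters 2, 5 and 6.

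**Figure D4:**
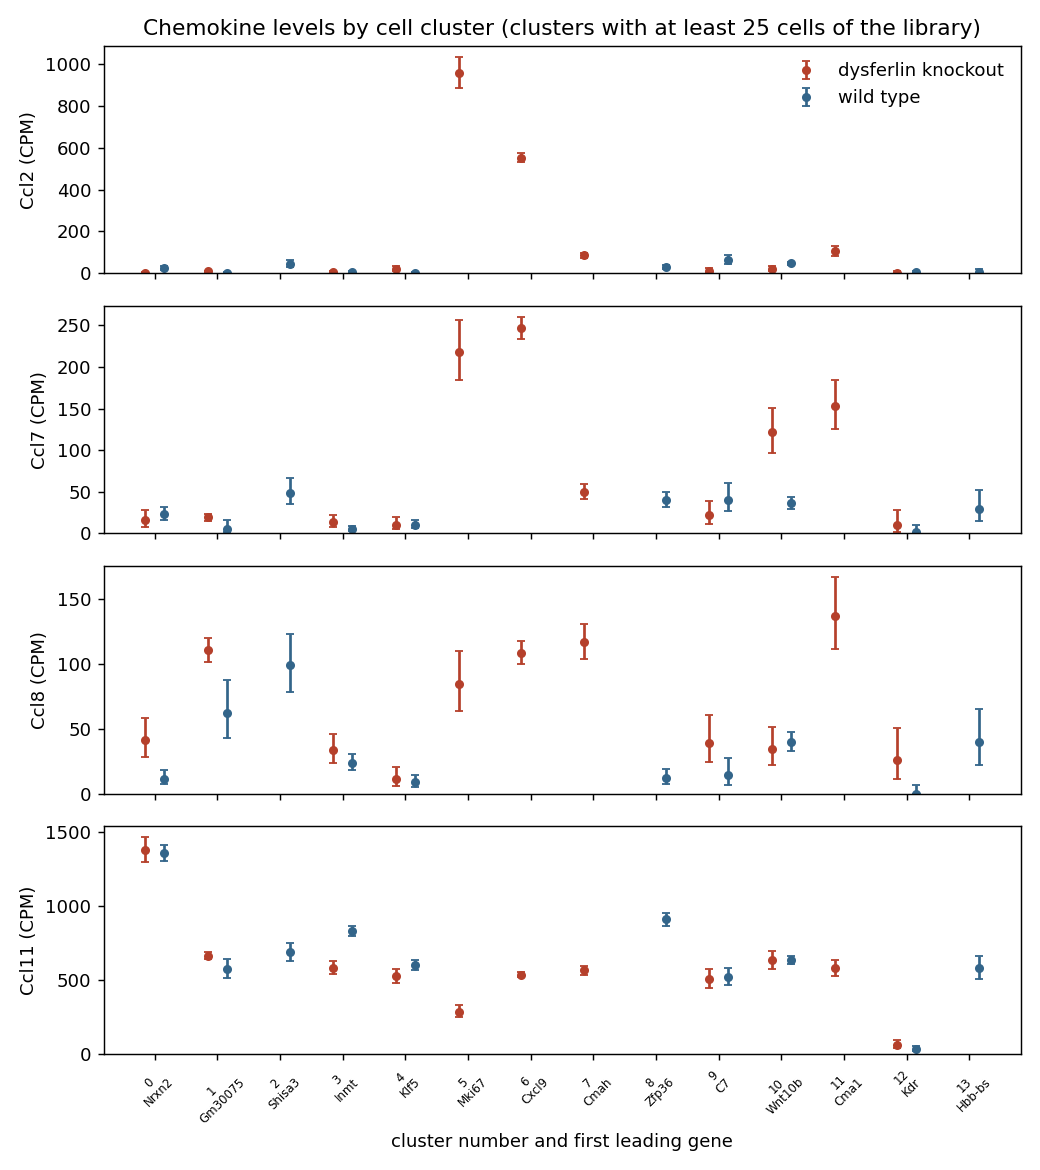
Level of each chemokine (CPM) by cell cluster, with the knockout library in red left of the wild type library in blue, for clusters with at least 25 cells of the library. Bars are exact Poisson 95% intervals, which cover counting error only. Ccl2 and Ccl7 peak in the knockout cells of clusters 5 and 6, Ccl8 is above 100 CPM in several knockout clusters, and Ccl11 peaks in cluster 0 in both libraries (1379 CPM in knockout and 1357 CPM in wild type).

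The cells of each library were also ranked by the summed UMIs per 10000 of a gene list and cut into 3 equal parts. Ccl8 ran with activated matrix genes. It stood at 35.2, 94.7 and 126 CPM from the low to the high part of knockout cells, and at 10.2, 20.4 and 45.1 CPM in wild type cells. In each part knockout cells were higher. The list itself was higher in knockout cells, where 11 of its 12 genes were at least 1.5-fold higher, against 6.42% of all genes with a mean of at least 5 CPM. Median depth also went up with the list, at 10099, 13672 and 15061 UMIs in knockout cells, and at 7939, 9532 and 10545 UMIs in wild type cells.

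Ccl11 ran with the genes of interstitial FAPs, at 430, 540 and 831 CPM from the low to the high part of knockout cells and at 492, 722 and 1067 CPM in wild type cells. Here wild type cells were higher in each part. Ccl11 went down with activated matrix genes, at 688, 605 and 529 CPM in knockout cells and 907, 827 and 591 CPM in wild type cells. It went up with glucocorticoid-induced genes, at 492, 648 and 657 CPM in knockout cells and 578, 808 and 914 CPM in wild type cells. The metallothionein genes Mt1 and Mt2 weigh heavily in that ranking, and more so in the knockout library. They stood at 2248 and 1206 CPM of a list sum of 5581 CPM in knockout cells. In wild type cells they stood at 1886 and 753 CPM of 7584 CPM.

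Ccl7 was highest in the cells highest in immediate early genes, which are switched on within minutes of stress or growth signals and also by tissue digestion. It stood at 98.0, 95.7 and 128 CPM from the low to the high part of knockout cells and at 13.7, 14.5 and 48.9 CPM in wild type cells. It also went up with glucocorticoid-induced genes, at 56.7, 61.2 and 198 CPM in knockout cells and 7.88, 18.3 and 52.7 CPM in wild type cells. Mt1 and Mt2, which weigh heavily in that ranking, are the genes of the list that also ranked among the closest genes of Ccl7. By interferon-induced genes, Ccl7 stood at 78.3, 90.8 and 148 CPM in knockout cells and at 8.41, 33.8 and 32.3 CPM in wild type cells. Ccl8 stood at 58.0, 83.8 and 127 CPM in knockout cells and at 23.5, 36.0 and 21.6 CPM in wild type cells by that list. For Ccl11 the levels were 550, 591 and 649 CPM in knockout cells and 657, 792 and 815 CPM in wild type cells. Ccl2 showed no order shared by the libraries. By progenitor genes it stood at 477, 199 and 54.3 CPM in knockout cells and at 14.4, 61.4 and 29.1 CPM in wild type cells. Since single cells hold up to 412 Ccl2 UMIs, 1 cell can move such a part.

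**Figure D5:**
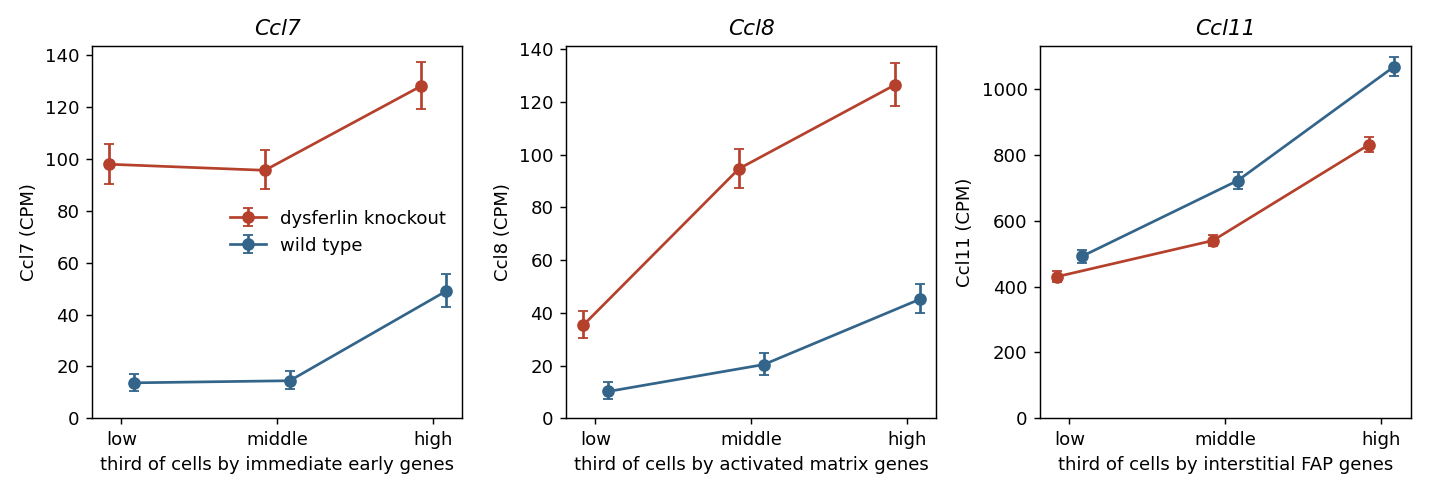
Level (CPM) of Ccl7, Ccl8 and Ccl11 in equal parts of the cells of each library, ranked from low to high by the summed UMIs per 10000 of the immediate early, activated matrix and interstitial FAP gene lists. Red is the knockout library and blue the wild type library, and bars are exact Poisson 95% intervals. Ccl8 reaches 126 CPM in knockout and 45.1 CPM in wild type cells of the high part, and Ccl11 reaches 831 CPM in knockout and 1067 CPM in wild type cells.

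For each chemokine, the 5 genes with the highest smaller of the 2 libraries' Pearson correlations were named, among genes found in at least 5% of cells of each library. For Ccl11 they were Lifr (r of 0.34 over 1435 knockout cells and 0.35 over 1533 wild type cells), Col4a1 (0.34 in knockout, 0.36 in wild type), Hsd11b1 (0.33 in knockout, 0.37 in wild type), Lamb1 (0.30 in knockout, 0.38 in wild type) and Mme (0.30 in knockout, 0.29 in wild type). Lifr is the receptor subunit for leukemia inhibitory factor, Col4a1 and Lamb1 are basement membrane components, and Mme is a cell-surface peptidase. Col4a1, Hsd11b1 and Mme also belong to the interstitial list above. The lowest correlations with Ccl11 were those of Col14a1 (-0.30 in both libraries), Cpxm2 (-0.24 in knockout and -0.31 in wild type cells) and Clu (-0.23 in knockout and -0.26 in wild type cells).

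For Ccl8 the 5 genes were the matrix genes Postn (0.23 in knockout and 0.22 in wild type cells), Col3a1 (0.22 in knockout, 0.19 in wild type), Sparc (0.22 in knockout, 0.18 in wild type), Col1a1 (0.20 in knockout, 0.18 in wild type) and Col1a2 (0.17 in both). All 5 also belong to the activated matrix list above, so the 2 results for Ccl8 are not independent. For Ccl7 they were Ptx3 (0.25 in knockout, 0.18 in wild type), Mt2 (0.31 in knockout, 0.15 in wild type), Tnfaip6 (0.15 in knockout, 0.16 in wild type), Cxcl1 (0.15 in knockout, 0.14 in wild type) and Mt1 (0.22 in knockout, 0.13 in wild type). Ptx3 and Tnfaip6 encode secreted proteins of inflamed tissue, Mt1 and Mt2 metallothioneins, and Cxcl1 a neutrophil chemokine. Ccl2 itself was left out of the Ccl7 ranking, since under 5% of wild type cells had a Ccl2 UMI. For Ccl2, the first was Ccl7 (0.59 in knockout, 0.39 in wild type). The next 4, Gadd45b, Icam1, Nfkbia and Ptx3, had values of 0.11 to 0.15 in knockout and 0.11 to 0.12 in wild type cells, which in counts this sparse do not set them apart.

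Most other CC ligands were low. Of 14 in the tables, only Ccl25 and Ccl27a had a mean of at least 5 CPM, and neither differed by 1.5-fold. Ccl6 had 166 UMIs in knockout cells and 0 in wild type cells, where 0 allows up to 3 counts, but 145 of the 166 were in 1 cell. Ccl9 had 56 UMIs in knockout cells and 5 in wild type cells. Ptprc was seen in 8 knockout cells and no wild type cell, and those 8 cells held 88.0% of the Ccl6 UMIs but only 0.09% of the Ccl2, 0.20% of the Ccl7, 0.17% of the Ccl8 and 0.42% of the Ccl11 UMIs of the knockout library.

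Among 14 CC receptor genes, the signalling receptors of the 4 chemokines were near 0. Ccr2 had 65 UMIs in knockout cells, 64 of them in 1 cell, and 1 UMI in wild type cells, and Ccr3 and Ccr8 had 0 in both libraries. The measured members were the atypical receptors, which bind chemokines without classical signalling. Ackr2, which takes up inflammatory CC chemokines, stood at 8.14 CPM in knockout cells and 24.9 CPM in wild type cells, a log2 ratio of -1.61. Ackr1 stood at 24.3 CPM in knockout cells and 32.5 CPM in wild type cells, a log2 ratio of -0.42, which is within 1.5-fold. Ackr2 was thus 1 of 2 measured receptors past the 1.5-fold criterion downward, against 4.31% of all genes.

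Of 8 measured CXC and CX3C ligands, 5 were at least 1.5-fold higher in knockout cells and 1 lower (median log2 ratio 0.68), where 6.42% of all genes with a mean of at least 5 CPM were higher and 4.31% lower by as much (median 0.05). Cxcl9 stood at 270.8 CPM in knockout cells and 2.50 CPM in wild type cells (log2 ratio 6.76), Cxcl10 at 54.1 CPM in knockout and 5.96 CPM in wild type (3.18), and Cx3cl1 at 15.2 CPM in knockout and 2.84 CPM in wild type (2.42). Cxcl1, the 1 lower gene, stood at 82.8 CPM in knockout cells and 148.8 CPM in wild type cells (-0.85).

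Upstream genes did not move as 1 block. Of 22 measured receptors for cytokines that can induce CC ligands, 7 were at least 1.5-fold higher and 3 lower in knockout cells (median log2 ratio 0.26), against 6.42% and 4.31% of all genes. Il1r1, the interleukin-1 receptor, stood at 112 CPM in knockout cells and 56.3 CPM in wild type cells (log2 ratio 0.99), Ifngr1, an interferon-γ receptor chain, at 317 CPM in knockout and 571 CPM in wild type (-0.85), and Il6ra, the interleukin-6 receptor, at 25.6 CPM in knockout and 63.5 CPM in wild type (-1.31). Of 19 measured genes of the NF-kB pathway and its feedback, 4 were higher and 2 lower (median 0.31). Vcam1, a leukocyte adhesion molecule, stood at 75.7 CPM in knockout cells and 28.4 CPM in wild type cells (1.42), and Nfkbia, the feedback inhibitor, at 182 CPM in knockout and 411 CPM in wild type (-1.18). Of 14 measured STAT, IRF and SOCS genes, 4 were higher and 1 lower (median 0.03), with Irf7, an inducer of interferon genes, at 34.7 CPM in knockout cells and 12.6 CPM in wild type cells (1.47). Of 22 measured interferon-induced genes, 21 were higher and none lower (median 1.36), and of 19 measured immediate early genes, 2 were higher and 10 lower (median -0.70), against the same 6.42% higher and 4.31% lower of all genes. Of 12 glucocorticoid-induced genes, 1 was higher (Mt2) and 8 lower (median -1.14). Of 10 interstitial FAP genes 2 were higher and 1 lower (median 0.16), and of 10 progenitor FAP genes none was higher and 3 were lower (median -0.40).

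Genes that act on chemokine messages or proteins were also counted. Of 9 RNA-binding regulators of chemokine mRNA, 1 was at least 1.5-fold higher and 2 lower in knockout cells (median log2 ratio 0.13), against 6.42% and 4.31% of all genes, so the 1 higher gene is near the share of all genes. Zfp36 (tristetraprolin), which promotes decay of AU-rich messages, stood at 217 CPM in knockout cells and 391 CPM in wild type cells (log2 ratio -0.85). Zc3h12a stood at 7.36 CPM in knockout and 12.6 CPM in wild type (-0.77). The 1 higher gene was Zfp36l2, at 175 CPM in knockout and 116 CPM in wild type (0.60). Of 6 measured proteases that can cleave chemokines, 3 were higher and none lower (median 0.63). Mmp3 stood at 376 CPM in knockout cells and 62.5 CPM in wild type cells (2.59), Mmp14 at 341 CPM in knockout and 175 CPM in wild type (0.96), and Mmp2 at 1090 CPM in knockout and 608 CPM in wild type (0.84). Of 12 proteoglycan genes whose products can hold chemokines, 3 were higher and 1 lower (median 0.13). The syndecan gene Sdc3 stood at 23.3 CPM in knockout cells and 7.49 CPM in wild type cells (1.64), and Sdc1 at 24.6 CPM in knockout and 10.1 CPM in wild type (1.29).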

How the data were processed

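FAPs of 4 labelled samples per group were measured by 10x Genomics 3′ version 3 chemistry. The authors deposited unnormalized UMI counts, in 1 matrix per group. The tools and build are, per the submitters' processing notes, Cell Ranger 3.0.0, Seurat and mm10, and software version 3.0.2 is written in the matrices, per the file headers. How empty droplets were set aside is not stated in the sources used here. Per the labels' protocols, pulse width gating removed doublets in the sort, and Scrublet called 1 gated knockout cell and 2 gated wild type cells, which were kept.

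UMIs were summed over gated cells and divided by the gated total (CPM). Ratios have exact conditional binomial 95% intervals, sums exact Poisson intervals and shares exact Clopper-Pearson intervals (scipy 1.17.1). With 1 library per group, no p-value was computed. A count of 0 allows 3 counts, or 0.156 CPM in the knockout and 0.208 CPM in the wild type library. Clusters came from scanpy 1.11.5 (2000 variable genes, 30 components, 15 neighbours, Leiden resolution 0.8). Coding stretches came from GENCODE M21 and were aligned with Biopython 1.88. The named genes were the 4 members, the 5 closest by correlation and up to 3 of each list with the largest ratios. Besides these, cell type markers, Ccr2, Ccr3, Ccr8, Ccl6, Ccl9 and the genes lowest in correlation with Ccl11 were named after their values were seen. The members and lists were chosen with earlier results of these data known. The calculation was tested on simulated data, drawn without the concentration in few cells seen for Ccl2 and Ccl7.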

Additional observations from a re-analysis of the deposited data

How the results depend on the processing

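Every alternative kept the direction of the log2 ratio of all 4 genes (12 alternatives for Ccl2, 13 for each of the others). Ccl2, Ccl7 and Ccl8 stayed at least 2-fold higher in each, and Ccl11 within 2-fold. No alternative left out clusters 2, 5 and 6, which held 8.99%, 13.8% and 68.5% of the knockout Ccl2 UMIs. In the clusters shared by both libraries, Ccl2 was higher in 1 and lower in 3 of the 4 that gave a ratio. The direction for Ccl2 therefore rests on clusters with few cells of 1 library. Values outside the counting interval were as follows. With at least 2 Pdgfra UMIs required, Ccl2 was 3.50, and without the Pdgfra gate Ccl11 was -0.29. Without cells that hold a Cxcl9 UMI, the values were 2.36 for Ccl2, 1.46 for Ccl7, 1.43 for Ccl8 and -0.38 for Ccl11. Under a stricter cell filter (1000 genes or more, mitochondrial UMIs of 5% or less), Ccl7 was 1.83. Ccl11 was -0.39 with a median-ratio size factor and -0.39 with mitochondrial and ribosomal genes left out of the total. Ccl8 was 1.90 with cells weighted equally. Without the 5% of cells highest in the gene, Ccl7 was 4.30 and Ccl8 2.52, while Ccl2 kept 145 knockout and 0 wild type UMIs and gave no ratio. The Ccl7 value rests on 20 wild type UMIs and the Ccl8 value on 140, since the cut removes a larger part of the fewer wild type positive cells. Without the single highest cell of each library, an alternative chosen after seeing the data, Ccl2 was 3.07. The differences in the share of thinned cells, in percentage points, moved with depth: 7.02 for Ccl2 and 18.6 for Ccl8 at 6000 UMIs, 5.46 for Ccl7 and 9.53 for Ccl8 at 2000 UMIs, and 6.82 for Ccl7 under the stricter cell filter. Genes at least 2-fold apart numbered 165, against 373 at a mean CPM of at least 5 and 91 at 50. Of the 20 genes named by likeness, 12 were also named by Spearman correlation. Pairs found together at 2 or more times the count that their single shares give numbered 2 in wild type cells, against 1 at 6000 UMIs and 3 at 2000 UMIs. Pairs with Ccl11 could not reach that ratio, since most cells carried Ccl11. The causes of these shifts were not tested. No paired analysis was possible because the cells of all samples of a group are pooled in 1 matrix.

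Ccl2 values rest on few cells, and in wild type cells on 512 UMIs. Intervals cover counting error only and leave out the draw of cells, and variation between the pooled animals is unknown.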
